A study of Mus musculus with 6 samples.

Results

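The nuclear speckle scaffold genes Son, Srrm1, Srrm2, Acin1, Sugp1, Sugp2, Pnisr, Rbm25 and Tra2a were followed in the pancreatic islets of mice that carried or lacked Paupar, the gene of a long noncoding RNA that neighbours Pax6. These 9 genes, of 53670 in the count table, were taken by name, and all 9 passed the filter on low counts. The names were chosen by role, with the measured fold changes between knockout (KO) and wild-type (WT) islets already known. Their values in that contrast are thus given as a description, with no test of the 9 as a set. Their calls in the test over all genes are part of that description and no separate support. The groups were 3 libraries of Paupar +/+ islets (WT) and 3 of Paupar -/- islets (KO), all from mice aged 6 weeks, each read to between 25733194 and 27285009 gene counts. The sources used here do not give strain, sex, the design of the deleted allele or whether each library came from a separate animal. Part of the spread between libraries may thus be technical. KO replicate 1 differed from KO replicates 2 and 3 in sex-linked genes (below), so the KO libraries were not all repeats of the same material.

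Nuclear speckles are membraneless bodies between the chromosomes where splicing factors are stored, modified and released to nearby transcribed genes. The very large proteins encoded by Son and Srrm2 hold the body together, and many residents carry stretches rich in arginine and serine (RS) whose phosphorylation by CLK and SRPK kinases governs their release. Speckles also hold the noncoding RNA Malat1, and islet endocrine cells share with neurons a set of splicing factors that act on secretory and signalling transcripts.

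The libraries were checked first. Reads on Paupar numbered 177, 252 and 111 for WT replicates 1 to 3, against 4, 0 and 4 for KO replicates 1 to 3. The islet hormone genes were abundant in every library, and the 8 endocrine markers together took 26.7 to 29.8% of counts in WT and 31.5 to 32.1% in KO. The 14 acinar (digestive enzyme) markers took 2.67 to 8.07% in WT and 1.90 to 4.82% in KO, and the 8 endothelial markers summed to 359 to 470 CPM in WT and 504 to 519 CPM in KO, where CPM is counts per 1000000 counts of the library. The 7 stellate and fibroblast markers stood at 78.3 to 185 and 70.1 to 182 CPM, the 7 macrophage markers at 103 to 188 and 122 to 221 CPM, and the 6 Schwann cell markers at 9.83 to 19.4 and 9.57 to 12.1 CPM in WT and KO. No defining marker of any of these lists was at 0. Xist counts were 1, 6 and 3 for WT against 0, 1120 and 862 for KO, those of the Y-linked Ddx3y were 1715, 1316 and 1830 against 1693, 2 and 0, and thus KO replicates 2 and 3 stood apart from the other 4 libraries in these genes. Both of the libraries that stood apart are KO, so this difference is partly confounded with genotype. The part of these differences in the results on the 9 genes was not tested. The fold changes of the 4 genes that differed most are also given for KO replicate 1 alone and without it.

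The 9 genes were split into a pair of sets by whether their KO and WT libraries overlapped, so a difference in change between the sets is partly by definition. Sugp2, Acin1, Srrm2 and Pnisr had all 3 KO libraries below all 3 WT libraries, with KO means at 49.7 to 72.9% of the WT mean. Son, Srrm1, Sugp1, Rbm25 and Tra2a had overlapping groups and KO means at 94.3 to 101% of WT. In the bulk RNA of an islet, fewer cells that express a gene and less RNA per cell cannot be told apart. Over all 15915 genes tested, 12.1% had every KO library below every WT library. In edgeR's quasi-likelihood test 2 of the 9 genes, Acin1 and Sugp2, were called lower at an adjusted p below 0.05, against 0.170% of all genes (27 genes were lower and 0 higher; an unadjusted p below 0.05 was reached by 1493 on the lower side and 1113 on the other). DESeq2 called Srrm2 and Pnisr as well and none of the 9 higher, against 2.75% of all genes lower and 1.31% higher. The log2 fold change was negative for 8 of the 9 genes and for 49.7% of all genes. Since the contrast helped to choose the genes, nothing is read from these counts. The calls also changed with the test and the libraries used. None of the 9 was called in limma-voom, with offsets for exonic length and GC content, or with the acinar marker level as a covariate. Nor was any called without WT replicate 1, WT replicate 2, KO replicate 1, KO replicate 2 or KO replicate 3. In these settings 0 genes of the whole table were called lower, or 4 without KO replicate 1. The loss was thus not particular to the 9 genes. With 1 library left out, the log2 fold change ran from -0.63 to -0.56 for Acin1 and from -1.08 to -0.95 for Sugp2.

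**Figure D1:**
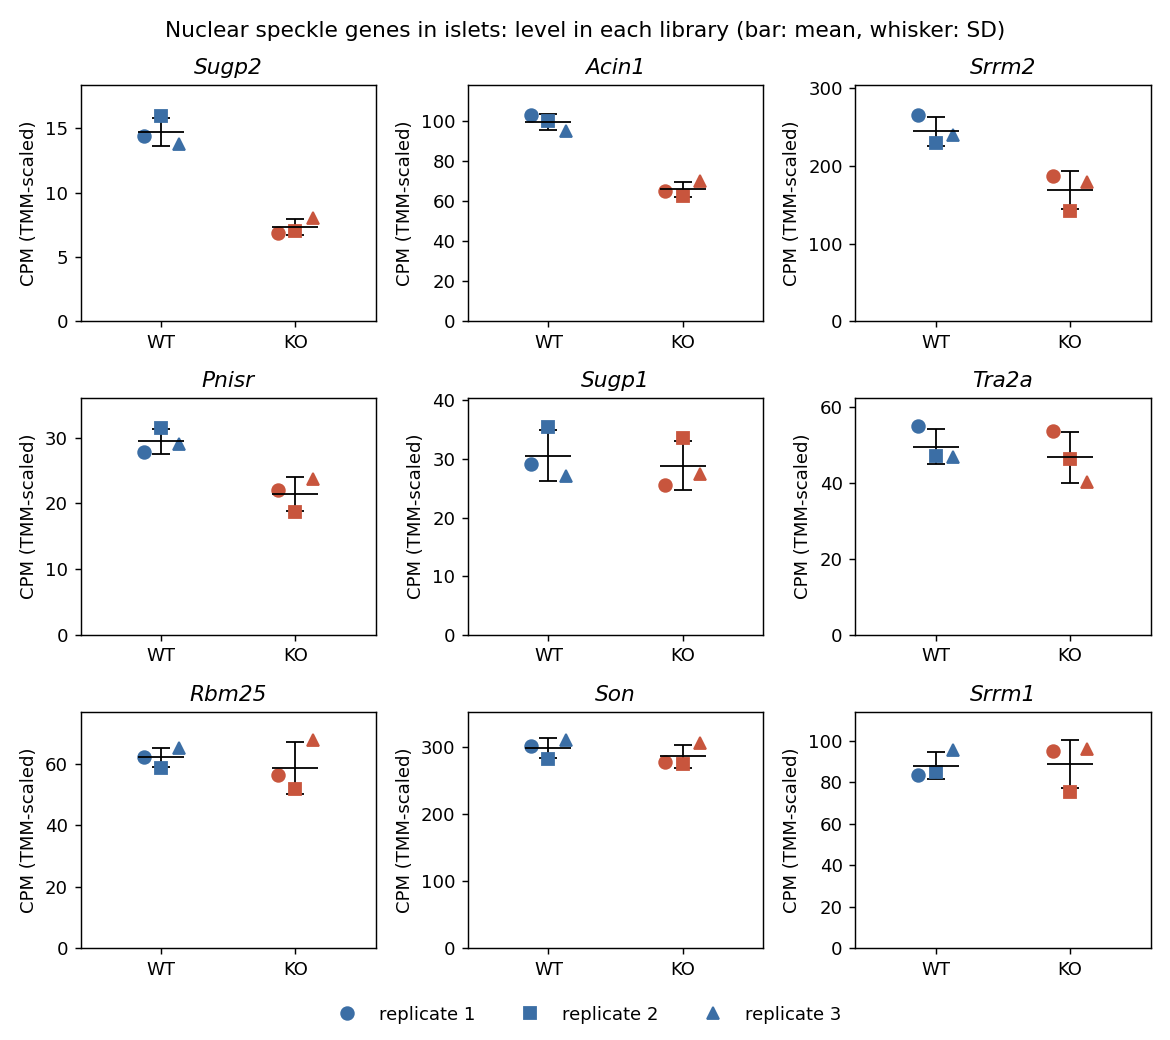
Level of each gene (CPM scaled by TMM factors, linear axis from 0) in the 3 WT and 3 KO libraries, with replicates 1, 2 and 3 as circle, square and triangle, the mean as a bar and the SD as a whisker. In the panels of Sugp2, Acin1, Srrm2 and Pnisr the KO points lie below all WT points, and in the other 5 panels the groups overlap.

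The scaffold pair came apart. Srrm2, which encodes the giant RS-rich SRm300 protein (chromosome 17, 23940154 to 23961706 in mm9, plus strand), stood at 265, 229 and 239 CPM, here after scaling by TMM factors, in WT replicates 1 to 3 and at 187, 142 and 179 CPM in KO replicates 1 to 3. The gap from the lowest WT to the highest KO library was 18.4% of that WT level, and KO replicate 2 was the lowest of all. The means were 244 ± 18.7 CPM in WT and 169 ± 24.0 CPM in KO (SD, n = 3 libraries each), a log2 fold change of -0.53 (SE 0.12). Son, which encodes the other core scaffold, a protein that also promotes splicing of weak introns (chromosome 16, 91647751 to 91679466, plus strand), stood at 302, 283 and 312 CPM in WT and at 278, 275 and 306 CPM in KO. KO replicate 3 lay within the WT range and the other 2 KO libraries just under it, with a log2 fold change of -0.06 (SE 0.08). The ratio of Srrm2 to Son counts within a library, which does not depend on scaling, was 0.878, 0.808 and 0.768 in WT and 0.671, 0.516 and 0.584 in KO, without overlap of the groups.

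Srrm1, which encodes the splicing coactivator SRm160, a partner of the SRm300 protein (chromosome 4, 134876399 to 134909236, minus strand), did not share the lower level of Srrm2. It stood at 83.5, 84.7 and 95.4 CPM in WT and at 95.0, 75.1 and 96.1 CPM in KO, where replicate 2 was the lowest library and the other 2 were at the top of the WT range. Its log2 fold change was 0.01 (SE 0.11), the only positive value of the 9. The ratio of Srrm2 to Srrm1 counts was 3.18, 2.70 and 2.51 in WT and 1.96, 1.89 and 1.86 in KO.

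Acin1 encodes acinus, the subunit that joins RNPS1 and SAP18 in the ASAP complex, a binder of the exon junction complex (chromosome 14, 55260998 to 55305768, minus strand). Its level was 103, 100.01 and 95.2 CPM in WT and 65.2, 62.8 and 70.0 CPM in KO. The groups lay well apart, with a coefficient of variation of 3.97% in WT and 5.53% in KO, the lowest KO value of the 9. The log2 fold change was -0.59 (SE 0.07). Neither complex partner passed the test (edgeR adjusted p = 0.922 for Rnps1 and 0.327 for Sap18). Whether their change differed from that of Acin1 was not tested. Rnps1 stood at 24.5 ± 1.13 CPM in WT and 25.3 ± 6.24 CPM in KO (log2 fold change 0.05, SE 0.18) and Sap18 at 46.7 ± 2.86 and 52.2 ± 1.70 CPM (0.16, SE 0.07), its KO libraries all above its WT libraries. A library held 4.20, 4.30 and 3.73 Acin1 counts per Rnps1 count in WT, against 3.45, 2.002 and 2.74 in KO, with no overlap but a wide KO range. In the mm9 annotation 5.36% of the exonic length of Acin1 is shared with 1700123O20Rik on the other strand, which stood at 17.4 ± 0.940 CPM in WT and 18.9 ± 2.57 CPM in KO. A further 0.868% is shared with 4930579G18Rik, also on the other strand and at a very low level, 0.757 ± 0.249 CPM in WT and 0.241 ± 0.189 CPM in KO (log2 fold change -1.63, SE 0.57).

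The SURP and G-patch genes Sugp1 and Sugp2 lie on the same strand of chromosome 8 in mm9, at 72566712 to 72595852 and 72758125 to 72803814, with 162272 bp between them. SUGP1 acts at the branch site with the U2 snRNP, and less is known of SUGP2. Sugp2 stood at 14.4, 15.9 and 13.8 CPM in WT and at 6.85, 7.07 and 8.03 CPM in KO, the widest gap of the 9, at 41.9% of the lowest WT level. Its log2 fold change was -1.01 (SE 0.12). It was also the least abundant of the 9, with 373 to 429 counts in WT and 180 to 213 in KO, where counting noise alone gives a coefficient of variation of 5.03% in WT against 7.46% observed. Sugp1 stood at 29.2, 35.5 and 27.1 CPM in WT and at 25.6, 33.6 and 27.4 CPM in KO, replicate 2 being the highest of each group (log2 fold change -0.08, SE 0.14). Per Sugp1 count, a library held 0.493, 0.449 and 0.511 Sugp2 counts in WT and 0.267, 0.210 and 0.293 in KO. Of the exonic length of Sugp2, 1.67% overlaps Armc6 on the other strand, which stood at 8.48 ± 1.66 CPM in WT and 7.78 ± 0.511 CPM in KO. Whether the counting used strand is not given in the sources used here, so reads from such overlaps cannot be told apart.

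Pnisr, annotated in mm9 as Sfrs18 (chromosome 4, 21774730 to 21803622, plus strand), encodes an RS-rich partner of pinin. It stood at 27.8, 31.5 and 29.0 CPM in WT and at 22.1, 18.7 and 23.7 CPM in KO, with the narrowest gap of the 4 genes whose groups did not overlap (14.9% of the lowest WT level). The log2 fold change was -0.46 (SE 0.11). Pnn, which encodes pinin itself, stood at 57.2 ± 5.10 CPM in WT and 47.4 ± 6.05 CPM in KO (-0.27, SE 0.11), with overlapping libraries.

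The splicing regulators Rbm25 and Tra2a had overlapping groups. Rbm25, whose protein shifts splice site choice in apoptosis genes (chromosome 12, 84973184 to 85024073, plus strand), stood at 62.2, 58.8 and 65.2 CPM in WT and at 56.3, 51.7 and 67.9 CPM in KO, so that KO held the lowest and the highest library (log2 fold change -0.08, SE 0.11). Tra2a, which encodes an SR-like activator that binds GAA-rich exonic enhancers (chromosome 6, 49193920 to 49214051, minus strand), stood at 54.8, 47.0 and 46.7 CPM in WT and at 53.6, 46.2 and 40.3 CPM in KO (-0.08, SE 0.12). Its paralog Tra2b stood at 65.0 ± 4.94 CPM in WT and 68.5 ± 1.93 CPM in KO (0.08, SE 0.08), and the count ratio of Tra2a to Tra2b was 0.765 ± 0.0939 in WT and 0.681 ± 0.0882 in KO, with overlapping groups. Within the KO group replicate 2 was the lowest library for 6 of the 9 genes and replicate 3 the highest for 6, whereas each WT library was the highest for 3.

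The RefSeq promoters of these genes (GRCm38.p6) are shown for the gene with the largest change and its neighbour Sugp1, for Acin1 and Srrm2, next in size of change, and for Son as a scaffold gene whose groups overlapped. Each is the 250 bases before a start site, 5′ to 3′ on the gene's strand, at chr8:70233955-70234204 (plus) for Sugp2, chr8:70042537-70042786 (plus) for Sugp1, chr14:54686966-54687215 (minus) for Acin1, chr17:23802937-23803186 (plus) for Srrm2 and chr16:91647574-91647823 (plus) for Son. Capitals mark matches to 5 motifs on either strand: GGGCGG (GC box), CCAAT (NF-Y box), CCGGAAG (ETS), TGACGT (core of the cyclic AMP response element) and CACGTG (E-box). No matches overlap each other in these bases.
Sugp2: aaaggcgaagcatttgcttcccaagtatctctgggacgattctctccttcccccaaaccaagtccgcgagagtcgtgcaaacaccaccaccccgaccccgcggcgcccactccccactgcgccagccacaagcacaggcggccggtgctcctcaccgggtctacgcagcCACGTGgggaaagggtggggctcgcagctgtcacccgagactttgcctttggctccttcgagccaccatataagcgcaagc
Sugp1: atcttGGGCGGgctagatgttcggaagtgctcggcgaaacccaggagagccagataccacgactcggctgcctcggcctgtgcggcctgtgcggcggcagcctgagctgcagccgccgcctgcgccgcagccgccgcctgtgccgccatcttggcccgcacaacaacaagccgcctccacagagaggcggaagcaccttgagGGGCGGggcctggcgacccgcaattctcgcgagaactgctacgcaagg
Acin1: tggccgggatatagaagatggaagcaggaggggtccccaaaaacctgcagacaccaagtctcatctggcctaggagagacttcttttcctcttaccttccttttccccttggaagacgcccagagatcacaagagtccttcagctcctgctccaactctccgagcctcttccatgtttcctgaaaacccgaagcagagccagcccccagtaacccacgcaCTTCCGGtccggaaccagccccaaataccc
Srrm2: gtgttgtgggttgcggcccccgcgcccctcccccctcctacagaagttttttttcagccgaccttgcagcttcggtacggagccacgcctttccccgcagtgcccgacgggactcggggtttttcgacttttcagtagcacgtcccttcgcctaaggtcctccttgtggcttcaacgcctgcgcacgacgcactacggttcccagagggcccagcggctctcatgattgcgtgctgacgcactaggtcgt
Son: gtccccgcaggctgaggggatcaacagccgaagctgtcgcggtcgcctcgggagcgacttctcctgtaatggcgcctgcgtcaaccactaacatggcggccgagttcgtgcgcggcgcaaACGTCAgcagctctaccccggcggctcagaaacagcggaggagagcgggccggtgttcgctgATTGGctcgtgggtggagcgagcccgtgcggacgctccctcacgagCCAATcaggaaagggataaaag

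None of the 5 motifs was common to the promoters of Sugp2, Acin1 and Srrm2. In windows that also take in the 50 bases after the start, promoters were found for 8 of the 9 genes, all but Pnisr. The E-box was found in Sugp2, the ETS motif in Acin1 and no motif in Srrm2, while 7.15% of all 32851 promoter windows held the E-box and 8.86% the ETS motif. Son and Tra2a held the cyclic AMP response core, found in 7.51% of all windows, and its matches in Tra2a partly overlap each other. The GC box stood in Srrm1, Sugp1 and Tra2a (35.7% of all windows) and the NF-Y box in Son, Srrm1 and Tra2a (37.4%). The windows of Son, Srrm1, Srrm2, Sugp1, Sugp2 and Tra2a held 25 to 40 CG dinucleotides against a median of 7.0 over all windows, Acin1 at most 13 in any of its 4 windows, and the single Rbm25 window none. A match is a description of the letters and says nothing of a factor.

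The order of the 9 genes by level was read per kilobase of merged exons, since counts grow with length. In WT, Srrm2 led at 27.6 ± 2.11 CPM per kb, followed by Son at 20.0 ± 0.976. Both stood clear of their neighbours below. Tra2a (16.1 ± 1.51 CPM per kb), Rbm25 (14.6 ± 0.761), Sugp1 (13.4 ± 1.92), Srrm1 (11.9 ± 0.890) and Acin1 (11.5 ± 0.456) followed, and each of these overlapped the next in the order. Pnisr at 2.80 ± 0.179 and Sugp2 at 1.02 ± 0.0761 CPM per kb were set apart at the bottom. In KO the order changed at the top, with Son at 19.2 ± 1.15 and Srrm2 at 19.1 ± 2.70 CPM per kb overlapping, and Acin1 (7.63 ± 0.422) no longer overlapping Srrm1 (12.04 ± 1.602). Merged exons include rarely used ones, and per kilobase of the longest coding sequence, an alternative chosen after seeing the data, the WT order began with Tra2a (58.5 CPM per kb), Son (40.2) and Srrm1 (31.0) and again ended with Pnisr (12.1) and Sugp2 (4.60).

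**Figure D2:**
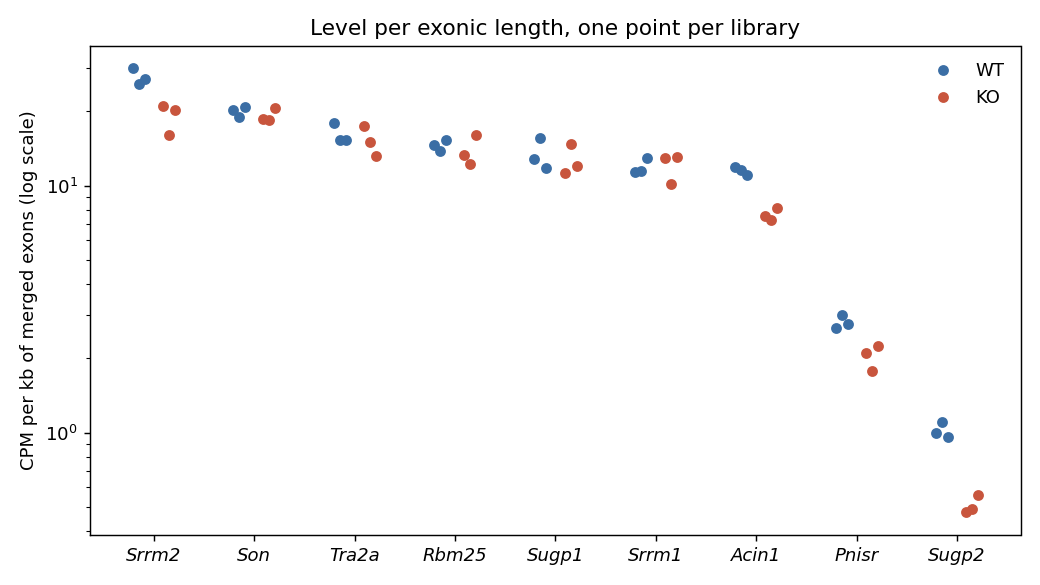
Level per kilobase of merged exons (log axis) for each of the 9 genes, ordered by the WT mean, with 1 point per library, WT blue and KO red. Srrm2 leads in WT at 27.6 CPM per kb and overlaps Son in KO, and Sugp2 is the lowest in either group.

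The 4 lower genes were long, and over all genes the fold change went with length. Exonic length ran from 2287 bp (Sugp1) to 14907 bp (Son), and 6 of the 9 genes, Son, Srrm1, Srrm2, Acin1, Sugp2 and Pnisr, were in the longest of 5 equal length classes of genes (6035 to 52997 bp). The median log2 fold change there was -0.10, and 23.5% of its genes had every KO library below every WT library, against a median of 0.09 and 4.43% in the shortest class. Count ratios of genes of unlike length, such as Sugp2 to Sugp1 and Acin1 to Rnps1, were not adjusted for this trend. Son and Sugp2, at 14907 and 14428 bp, had log2 fold changes of -0.06 and -1.01. With smooth offsets for exonic length and GC content in each library, Sugp2 was at -0.74, Acin1 at -0.41, Pnisr at -0.38 and Srrm2 at -0.35, each closer to 0 than without them, and Son turned to 0.12. Tra2a and Rbm25 moved away from 0, from -0.08 each to -0.17 and -0.14. Srrm1 was at 0.08 and Sugp1 at -0.06. The edgeR calls of Acin1 and Sugp2 were lost with these offsets, as were all calls over the whole table. The offsets were fitted to deviations from each gene's mean over all 6 libraries. Any KO to WT difference that goes with length or GC content is thus taken out with them, whatever its source. The source of the trend was not tested.

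**Figure D3:**
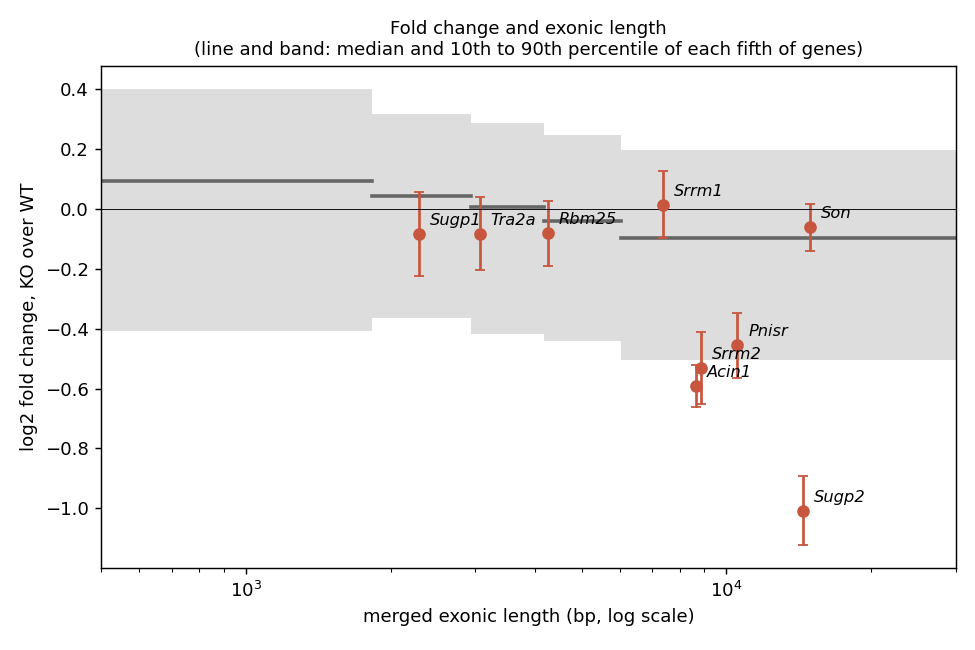
Log2 fold change (KO over WT, whisker SE) of the 9 genes against merged exonic length on a log axis. Grey lines and bands give the median and the 10th to 90th percentile of each of the 5 length classes of all tested genes. Sugp2 at -1.01, Acin1 at -0.59 and Srrm2 at -0.53 lie below the band of the longest class, whereas Son lies near its median.

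The 4 lower genes kept their sign in each of the 17 alternative settings, and the other 5 did not. These 4 had been set apart because all their KO libraries lay below all their WT libraries, so leaving libraries out could hardly reverse them. Their constant sign is thus no separate support. Against the 3 WT libraries, KO replicate 1 alone gave -1.10 for Sugp2, -0.61 for Acin1, -0.39 for Srrm2 and -0.42 for Pnisr. Without KO replicate 1 the values were -0.96, -0.58, -0.61 and -0.48. Tra2a was at 0.12 with KO replicate 1 alone and -0.19 without it, and Srrm1 at 0.11 (SE 0.12) and -0.04 (SE 0.13). For Srrm1 both values lie within about 1 SE of 0, and of the KO libraries only replicate 2 was low, while replicate 3 was level with replicate 1. Over all settings Sugp1 ranged from -0.26 to 0.04 and Rbm25 from -0.20 to 0.00.

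**Figure D4:**
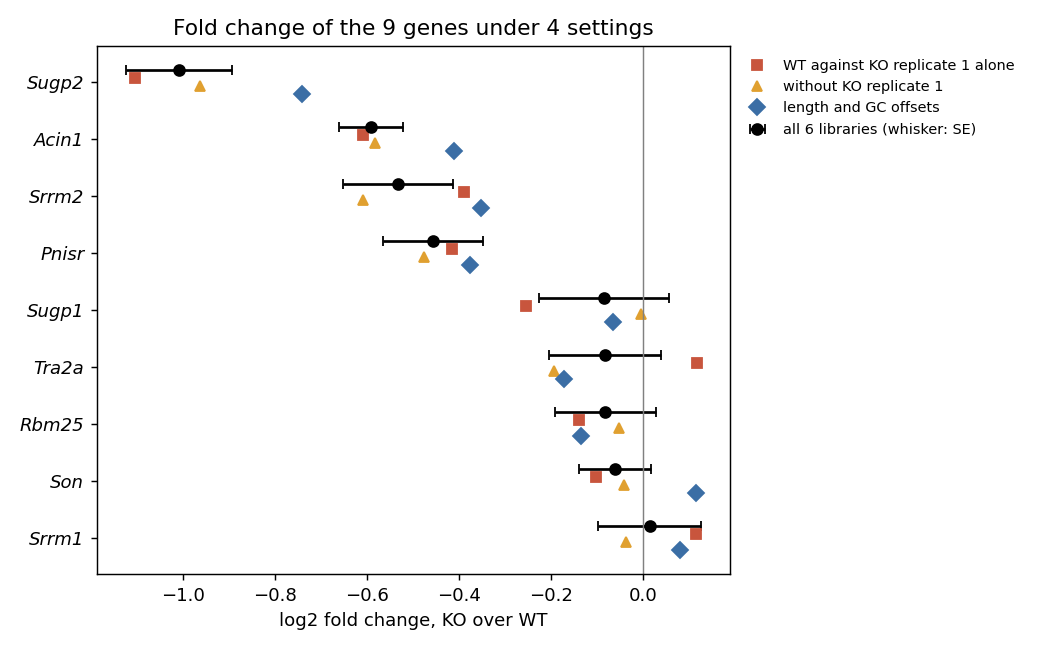
Log2 fold change (KO over WT) of each gene over all 6 libraries (black, whisker SE), with KO replicate 1 alone against WT (red squares), without KO replicate 1 (yellow triangles) and with length and GC offsets (blue diamonds). Sugp2, Acin1, Srrm2 and Pnisr lie left of 0 at every point, and Tra2a, Son and Srrm1 have points on either side.

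Around these 9 genes, 72 other genes of the nuclear speckle were listed in 8 groups by role, and all 72 were tested. The list was also chosen with earlier results of these data known. Its counts and shares, here and by group below, are thus a description from which nothing is read. None was called by edgeR, the lowest adjusted p being 0.0840, while at an unadjusted p below 0.05 it placed 24 lower and 1 higher in KO, beside 1493 lower and 1113 higher of all 15915 genes. DESeq2 called 11 lower (15.3%) and 0 higher, beside 2.75% and 1.31% of all genes. The median log2 fold change of the list was -0.10, against 0.00 over all genes tested and -0.08 over the 9 genes. Every KO library was below every WT library for 36.1% of the 72, beside 12.1% of all genes, and above for 5.56%, beside 11.3%. The median exonic length of the list was 5341 bp, against 3524 bp over all tested genes.

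The 11 genes of the kinase group all had negative values, beside 49.7% of all genes, with a median of -0.40. The group holds CLK and SRPK kinases of RS proteins and also others, such as Cdk12 and Cdk13, whose kinases act on the tail of RNA polymerase II. DESeq2 called 6 lower (Clk1, Clk2, Clk4, Srpk1, Cdk12 and Cdk13), beside 2.75% of all genes, where edgeR called 0. Clk1 stood at 40.7 ± 5.18 CPM in WT and 28.0 ± 4.32 CPM in KO (log2 fold change -0.54, SE 0.14, edgeR adjusted p = 0.171). Clk2 stood at 17.2 ± 1.38 and 10.5 ± 1.02 CPM (-0.72, SE 0.11, edgeR adjusted p = 0.0840). Of the 17 genes for long or RS-rich speckle proteins, 13 were negative (median -0.23), beside 49.7% of all genes, with the cyclophilin-domain gene Nktr at -0.50 (SE 0.09), Ppig at -0.19 (SE 0.12), and DESeq2 calling 3 lower (Nktr, Arglu1 and Luc7l3), beside 2.75% of all genes.

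The medians of the next 5 groups lay between -0.05 and 0.06. The SR protein genes (11 tested, 5 negative) had a median of 0.05, with the splicing factors Srsf1 at 0.16 (SE 0.09) and Srsf2 at 0.13 (SE 0.09). Every KO library was below every WT library for 27.3% of them (Srsf4, Srsf6 and Srsf11), beside 12.1% of all genes. It was above for 9.09%, beside 11.3%. The exon junction, ASAP and PSAP genes (8 tested, 2 negative), the group of the Acin1 partners, had a median of 0.06, and 3 of them (Sap18, Eif4a3 and Magoh, 37.5%) had every KO library above every WT library, beside 11.3% of all genes. Casc3 alone (12.5%) had every KO library below every WT library, beside 12.1% of all genes. None of the 8 was called by edgeR or DESeq2. The branch site and 3′ splice site genes of the U2 group (6 tested) had a median of -0.05, with U2af1 at -0.04 (SE 0.08), U2af2 at -0.05 (SE 0.07) and Sf3b1, called lower by DESeq2 only, at -0.25 (SE 0.07). Export genes (10 tested, median -0.04) included the helicase gene Ddx39b at -0.16 (SE 0.07) and the adaptor gene Alyref at -0.11 (SE 0.08). Genes for 3′ end and poly(A) factors (6 tested, median -0.04) included Pabpn1 at -0.37 (SE 0.25) and Tut1 at 0.00 (SE 0.09). Of the 3 relatives of the 9 genes, Srrm3, a neuronal-type paralog of the SRRM family, was called lower by DESeq2 only (-0.57, SE 0.13), and Srrm4 was at 0.37 (SE 0.38). The kinase and RS-rich groups were also long, with median exonic lengths of 6737 and 7509 bp, against 2363 bp for the exon junction group, and the part of length in these differences was not tested.

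**Figure D5:**
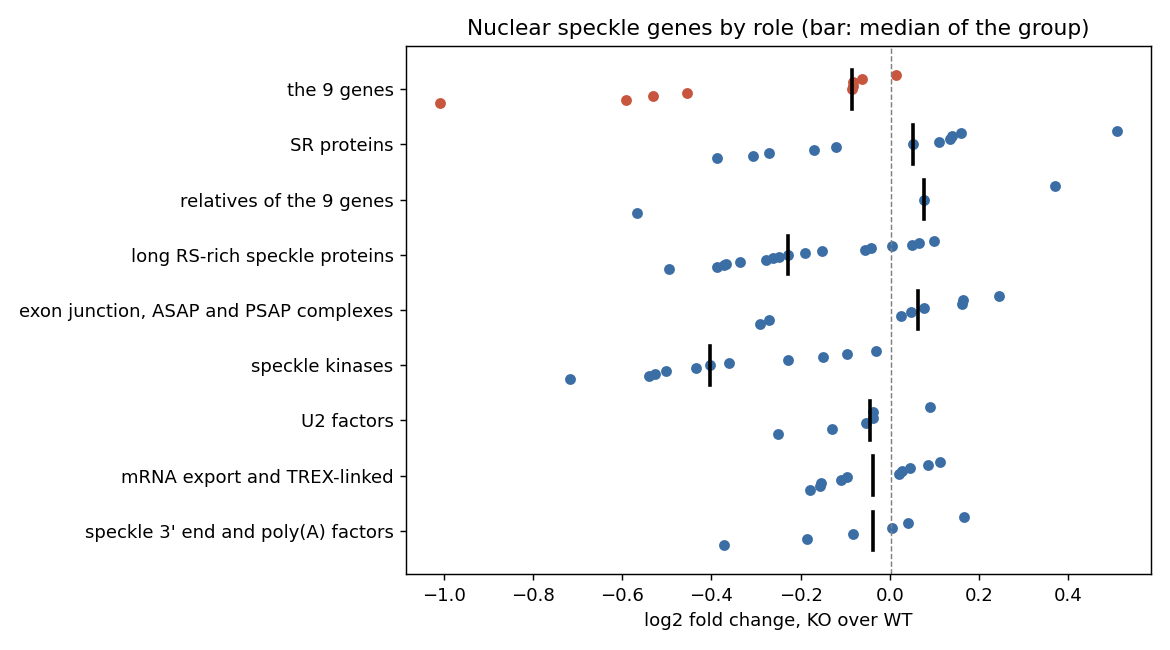
Log2 fold change (KO over WT) of the 9 genes (red) and of 72 other nuclear speckle genes (blue) in 8 groups by role, with the median of each group as a black bar and the median of all genes tested as a dashed line. The kinase group has its median at -0.40 and lies wholly left of 0, while the SR protein and exon junction groups straddle it.

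The speckle RNA Malat1 differed more than any of the 9 protein genes. It stood at 57.5, 101 and 61.3 CPM in WT and at 15.9, 17.3 and 12.6 CPM in KO, a log2 fold change of -2.26 (SE 0.24) that passed in edgeR (adjusted p = 0.0446) but not in limma-voom (adjusted p = 0.0558). Neat1, the scaffold RNA of the neighbouring paraspeckles, stood at 17.6 ± 1.24 CPM in WT and 8.22 ± 0.703 CPM in KO (-1.10, SE 0.11, adjusted p = 0.0446 in edgeR and 0.0558 in limma-voom). Either call was lost when any library other than WT replicate 3 was left out, with edgeR adjusted p-values of 0.0604 to 0.263 for Malat1 and 0.0828 to 0.263 for Neat1. Both were also lost with the length and GC offsets (edgeR adjusted p = 0.0784 for Malat1 and 0.111 for Neat1, whose log2 fold change moved to -0.81) and with the acinar covariate (adjusted p = 0.152 for each). When 1 library was left out, the log2 fold change ran from -2.40 to -1.96 for Malat1 and from -1.17 to -1.04 for Neat1. In those of these fits that lost the calls, 0 genes of the whole table were called lower, or 4 without KO replicate 1.

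The mean profile of the 9 genes, as log2 deviations from each gene's own mean, was 0.17, 0.17 and 0.14 in WT and -0.14, -0.25 and -0.09 in KO. Among 8627 other genes with a mean of at least 10 CPM, those with the smallest root-mean-square difference from it over the 6 libraries were Ptpn21, Emsy, Ddx23, Dicer1, Usp7 and Rbm6, at 0.0284 to 0.0350 log2 units. None of these 6 was in the wider speckle list. Ptpn21, the nearest, stood at 32.8 ± 1.17 CPM in WT and 26.7 ± 1.45 CPM in KO. Ddx23, a helicase gene of the spliceosome, stood at 60.5 ± 1.38 CPM in WT and 48.3 ± 3.89 CPM in KO, and Rbm6, an RNA-binding protein gene, at 48.3 ± 0.705 and 37.7 ± 2.93 CPM. The 9 genes themselves lay farther from their mean profile, from 0.102 for Pnisr to 0.351 for Sugp2, so that the mean stands for none of them closely.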

How the data were processed

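RNA of isolated islets was sequenced from 3 WT and 3 KO libraries made with a TruSeq RNA kit, per the labels' protocols. The deposited table holds raw read counts per gene, which the authors had not normalized. HISAT2 2.1.0 with HTSeq, DESeq2, CASAVA 1.8.2 and the mm9 build are listed, without roles, per the submitters' processing notes. The sources used here do not give the annotation, the counting options or the use of strand. All 6 columns were matched to samples by name. Date-like names stood in place of 24 gene names, none used here.

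Tests ran on these counts in edgeR 4.0.16 (R 4.3.3): filterByExpr by genotype (15915 genes kept), TMM scaling, the quasi-likelihood F-test over all genes and Benjamini-Hochberg adjustment, called below 0.05. Libraries of a group differed by more than counting noise. DESeq2 1.42.0 and limma-voom (limma 3.58.1) were alternatives, and all 3 tools were tested on simulated data. There a larger share of the DESeq2 calls than of those of edgeR or limma-voom fell on unchanged genes. The simulated counts were drawn with edgeR's own dispersion estimates and held no sex or acinar differences. That order of the tools need not carry over to the deposited counts. Lengths, GC content and mm9 coordinates came from GENCODE vM1 (92.8% of tested genes matched). Smooth offsets used mgcv 1.9.3. Features of the encoded proteins were not analysed here. Gene symbols of the wider list and the 9 genes were chosen with earlier results of these data known. Named in the text were the 9 genes, Paupar, Malat1, Neat1, the first 2 tested genes of each role group where none was called by edgeR, and the 6 genes nearest in profile. Other genes named, including partners and those called by DESeq2 only, were chosen after their values were seen. Plots used matplotlib 3.10.9 (Python 3.11.15).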

Additional observations from a re-analysis of the deposited data

How the results depend on the processing

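The count of genes lower in KO, 27 of 15915 with 0 higher, was 437 lower and 209 higher in DESeq2, and 0 lower in limma-voom, with length and GC offsets (alone or with the replicate block), with the acinar covariate and in KO replicate 1 alone (1 higher). It ran from 0 to 80 lower and 0 to 9 higher when 1 library was left out. For the 72 other speckle genes it was 0 in each direction, and 11 lower in DESeq2. The median over the 9 genes, -0.08, sits at the edge of a wide gap between the 2 sets and moved to -0.17 with the offsets, to -0.18 with the offsets and the replicate block, to -0.26 in KO replicate 1 alone, and to between -0.21 and -0.11 when 1 library was left out. This median is the value of the middle gene, which was Sugp1 in the main fit and in KO replicate 1 alone. It was Tra2a with the offsets, alone or with the replicate block. Why these genes moved was not tested. The replicate number as a block gave 0 calls, so those of Acin1, Sugp2, Malat1 and Neat1 were lost (edgeR adjusted p = 0.204 for Malat1 and for Neat1). Libraries with the same number had correlations of 0.195, 0.0506 and -0.0006 in their deviations from the group means. Those with unlike numbers had -0.131 to 0.0981, so the value for replicate 1 was the highest of all. The main fit did not pair libraries by number, and these values do not exclude a pairing. No setting among the 17 reversed Malat1, Neat1, Acin1, Sugp2, Srrm2 or Pnisr. In each of these genes all KO libraries lay below all WT libraries, so leaving libraries out could hardly do so. With 180 to 429 counts per library, Sugp2 is the gene of the 9 most limited by depth.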
